A study of Arabidopsis thaliana with 3 samples.

Results

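The genes described here are 9 Arabidopsis loci known for abaxial identity, the fate of the outer or lower side of a lateral organ. They are KAN1 (AT5G16560), KAN2 (AT1G32240) and KAN3 (AT4G17695) of the KANADI family, FIL (AT2G45190), YAB2 (AT1G08465), YAB3 (AT4G00180), YAB5 (AT2G26580) and INO (AT1G23420) of the YABBY family, and ARF4 (AT5G60450), an auxin response factor gene. They were chosen by locus name out of 27432 nuclear protein-coding genes in the reference table. The question was at which of them 2 B-class proteins, PISTILLATA (PI) and its partner APETALA3 (AP3), had binding sites in young flowers.

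Bound DNA was recovered with an anti-GFP antibody from flower tissue of the Ler background and sequenced (ChIP-seq). The 3 libraries of the series, each the only one of its group, came from PI-GFP AP1-GR ap1 cal plants, AP3-GFP AP1-GR ap1 cal plants and AP1-GR ap1 cal plants as the negative control. All groups thus shared the AP1-GR transgene, driven by the 35S promoter, and the ap1 and cal mutations, so flowers were started in mutant meristems by dexamethasone. The plants, about 4 weeks of age and kept at 20 degrees Celsius, received 10 µM dexamethasone in a solution that also held ethanol and Silwet L-77. Flowers were collected after 4 days, when they had reached roughly stage 4 to 5. The promoter that drives the GFP fusions is not given in the sources used here. Peak lists hold no expression values, so the tissue could not be checked against marker genes.

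Lateral organs, floral organs included, are built from an abaxial and an adaxial domain that restrain each other. KANADI genes encode GARP-domain transcription factors, and YABBY genes encode zinc finger and HMG-like factors that are expressed on the abaxial side. ARF4 acts with its relative ETT (ARF3) alongside KANADI, and the messages of both are cut through trans-acting small RNAs. PI and AP3 are MADS-domain proteins that act as a pair to specify petals and stamens.

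PI was present at 2 of the 9 genes and AP3 at 1. KAN2 was listed for both proteins, YAB5 for PI alone, and the other 7 genes for neither. The authors' gene tables give, for each listed gene, the highest peak score in 5 windows, which are 2000 to 3000, 1000 to 2000 and 0 to 1000 bp upstream of the gene, the gene itself, and 0 to 1000 bp downstream. A gene is called listed when any window holds a score, and a gene outside a table has no listed peak. Across all protein-coding genes, 8.69% were listed for PI, 7.26% for AP3 and 5.32% for both. The members' shares were 22.2% for PI and 11.1% for AP3, which rest on 2 genes and 1 gene. Each protein has 1 library, so no value has a replicate check and no test was made.

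The peak score, called Poisson in the file headers, is the authors' own value, with no stated scaling for library size. It ranks peaks within a list. The PI list held 1852 peaks with scores from 25.3 to 9217 (median 88.1), and the AP3 list 1524 peaks with scores from 26.6 to 9926 (median 58.6). Read numbers were not used here, so depth is unknown, and a site without a listed peak can have missed the authors' threshold. Both lists were made against the same negative control library, so they are not independent of each other. All positions are on the TAIR10 build.

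**Figure D1:**
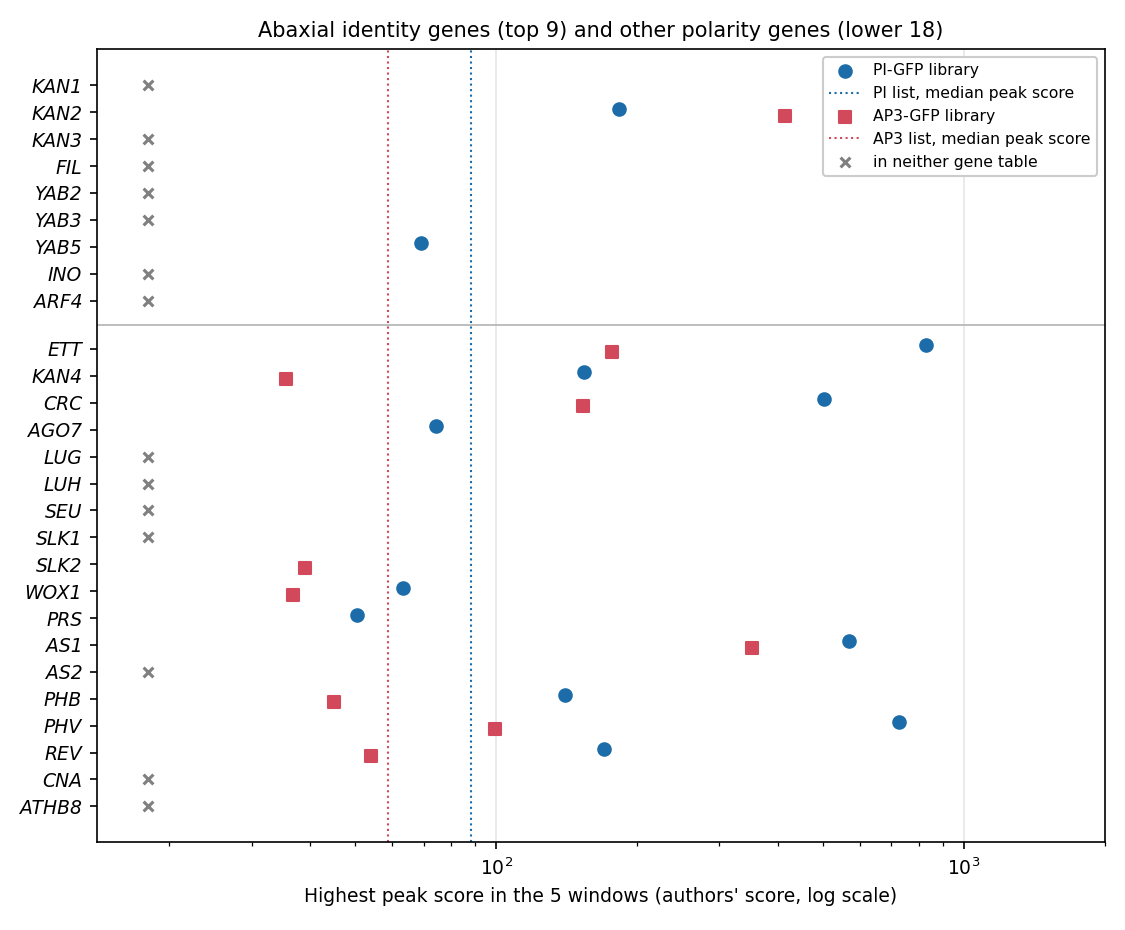
Highest peak score of each gene in the PI-GFP (circles) and AP3-GFP (squares) library, on a log axis, for the 9 abaxial identity genes above the line and 18 other polarity genes below it; crosses at the left mark genes in neither table, and dotted lines the median peak score of each list. Only KAN2 and YAB5 of the upper 9 carry a point, and KAN2 is the only gene of the 27 with an AP3 score (413) above its PI score (183).

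Among the KANADI genes, KAN2 carried binding of both proteins close to its 5′ end. KAN2 acts redundantly with KAN1 in giving organs, carpels and ovule integuments their abaxial side. The AP3 peak 0 to 1000 bp upstream of KAN2 had a score of 413 and spanned chromosome 1, 11630567 to 11631037. It ranked 79 of 1524 AP3 peaks and scored above 94.8% of them. The PI peak in the same window had a score of 181, ranked 455 of 1852 and spanned 11630585 to 11631048. The peaks were 471 bp (AP3) and 464 bp (PI) wide, nearly congruent, and their maxima lay 6 bp apart, at 11630836 and 11630830.

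PI had a further peak inside KAN2, at 11628504 to 11629120, and AP3 did not. Its score of 183 was almost that of the upstream PI peak (181), and it was the wider of the 2 at 617 bp, above the width of 89.1% of PI peaks. The maxima of these PI peaks lay 1945 bp apart. Of the 3 PI peaks at the 9 genes, only the upstream KAN2 peak overlapped an AP3 peak, where 55.3% of all PI peaks did. The 1 AP3 peak at the 9 genes overlapped a PI peak, as 69.5% of all AP3 peaks did. For the PI peak inside the gene, the nearest AP3 maximum was that of the upstream peak, 1.95 kb away. KAN2 was therefore a gene with 2 scored windows for PI and 1 for AP3. Of the listed protein-coding genes, 12.2% had a score in more than 1 window for PI and 10.9% for AP3.

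The peak lists hold more PI and AP3 binding around KAN2 than the gene tables list for KAN2. A PI peak of score 80.5 lay at 11626319 to 11626645, 4278 bp from the upstream peak and beyond the one inside the gene. The tables give only the highest score of a window, and KAN2 has no score downstream. If maxima decided the window, this peak lies inside KAN2 under the higher score or over 1000 bp past its end. Its score occurs at 3 PI peaks of chromosome 1 and is listed for a gene of that chromosome. The peak can therefore be listed for another gene. Farther in the same direction, 8774 bp from the upstream peak, PI had a peak of score 198 at 11621751 to 11622250, and AP3 one of score 172 at 11621801 to 11622158. Their maxima lay 76 bp apart. Neither score appears in any row of the gene tables, so this pair belongs to no listed gene. The PI score there was higher than that of either PI peak listed for KAN2.

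**Figure D2:**
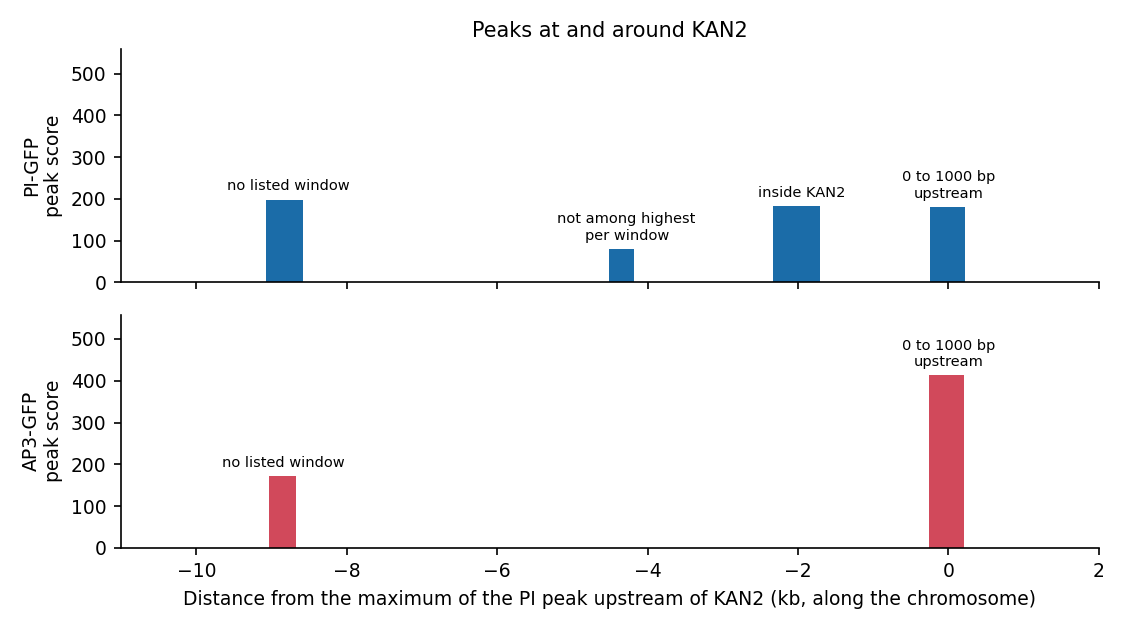
PI (upper panel) and AP3 (lower panel) peaks around KAN2, with distance in kb from the maximum of the upstream PI peak on the horizontal axis and the authors' peak score on the vertical axis; bars span the width of each peak. Both proteins share the upstream peak (181 and 413) and the peak 8774 bp away (198 and 172), while the peaks inside the gene (183) and at 4278 bp (80.5) are PI peaks alone. The label at the peak of 80.5 names only a possible case.

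The order of the scores at the KAN2 upstream peak differed from that at most shared peaks. Each of the 1025 PI peaks that overlapped an AP3 peak by at least 1 bp was paired with the highest AP3 peak it overlapped. The AP3 score was 2.28 times the PI score at KAN2, against a median of 0.626 over all pairs, with quartiles of 0.408 and 0.953. This was the 21st highest of the 1025 ratios. Since the lists are not scaled to each other, the size of the ratio does not measure relative binding, and its rank says only where KAN2 stands among the pairs. Among the protein-coding genes listed for both proteins, the highest AP3 score exceeded the highest PI score in 379 of 1460 (26.0%). At the pair of peaks in no window, 8774 bp away, the ratio was 0.867.

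KAN1, the founding KANADI gene with broad abaxial function, and KAN3, a further family member, were listed for neither protein. KAN4 (AT5G42630), which acts in the ovule integuments, was not among the 9. With it, the family had 2 of 4 genes listed for PI and the same count for AP3. Of all protein-coding genes, 8.69% were listed for PI and 7.26% for AP3. KAN4 came from a list chosen by hand with earlier results of these data known. The family count is therefore not a result about the family. At KAN4 the PI score was 154 and the AP3 score 35.5, both 0 to 1000 bp downstream, at chromosome 5, 17073507 to 17073880 for PI and 17073670 to 17073847 for AP3. The same peaks were also listed for AT5G42635. KAN4 thus differed from KAN2 in the window and in the order of the scores.

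Of the 5 YABBY genes, YAB5, one of the vegetative YABBY genes, was listed for PI only, through a weak peak inside the gene. Its score of 68.9 was below the PI median and ranked 1138 of 1852. Chromosome 2 holds 2 PI peaks with this score. The other one is far from YAB5 and a row of OZF1 has the same score, and of the pair only the peak at 11305130 to 11305518 (389 bp wide) lies between the nearest genes with a positioned peak on each side of YAB5. No AP3 peak overlapped it, and the nearest AP3 maximum was 96.6 kb away. A score inside the gene was found in 19.8% of the protein-coding genes listed for PI.

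FIL, which acts with YAB3 in abaxial fate and in the form of floral organs and meristems, was in neither table, yet one of the highest shared peaks of both lists lay beside it. This peak was chosen after the values were seen. For PI it spanned chromosome 2, 18635415 to 18635923, with a score of 1142 (rank 36 of 1852). For AP3 it spanned 18635456 to 18635898, with a score of 616.5 (rank 45 of 1524). The maxima were 1 bp apart, at 18635629 and 18635630. Its AP3 to PI ratio of 0.540 was close to the median of all pairs.

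Neither score stands in any row of the gene tables. Such peaks made up 8.53% of the PI list (158 peaks) and 9.25% of the AP3 list (141 peaks), and the peak beside FIL was the 4th highest of them in each. Its place was found from gene order in the reference table and from peaks of listed neighbors. The gene next to FIL is GOS12 (AT2G45200), which encodes a Golgi SNARE protein. GOS12 had peaks of score 59.9 (PI, maximum at 18636914) and 112 (AP3, maximum at 18636963) 0 to 1000 bp downstream of its end, 1285 and 1334 bp from the high PI maximum. On the other side of FIL, the nearest gene of the reference table with a positioned peak was HAM1 (AT2G45160). It is a GRAS gene of shoot meristems that lies 3 genes away. Its PI peak (42.7), 15.03 kb from the high peak, was also listed for AT2G45161, a locus outside that table. FIL with its windows is too long to fit into the 1285 bp between the high peak and the GOS12 peak, so the high peak lies in the stretch between FIL and GOS12. How peaks were assigned to windows is not given in the sources used here, and this peak was not assigned to FIL. If maxima decided, its maximum lies over 3000 bp from the 5′ end of FIL or over 1000 bp from the 3′ end. Which gene the peak acts on, if any, cannot be told from these files.

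**Figure D3:**
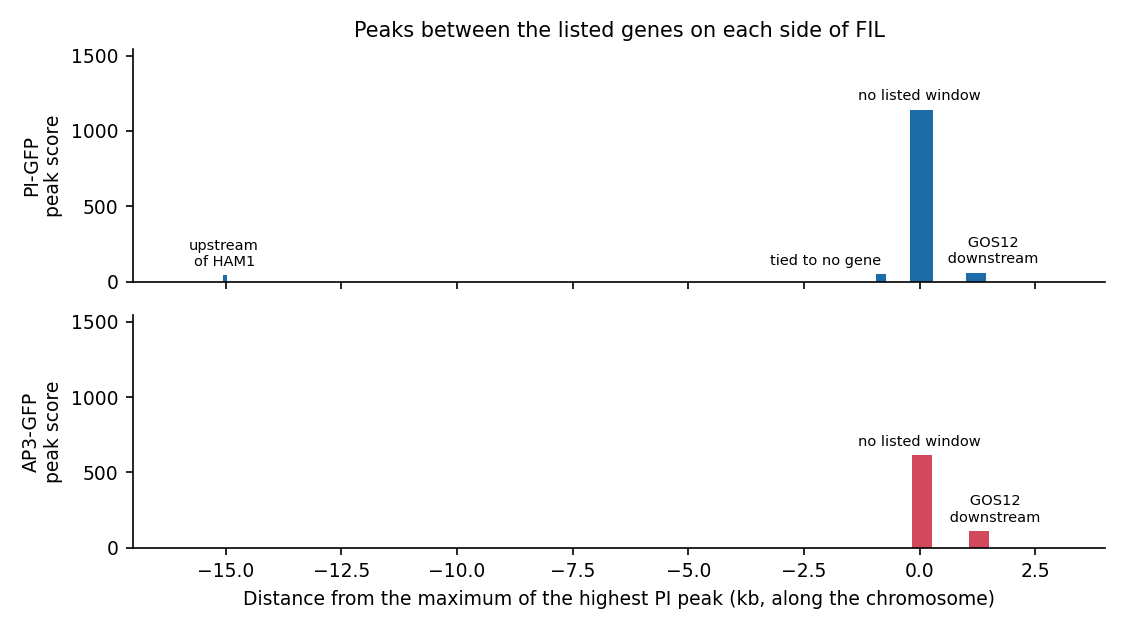
PI (upper panel) and AP3 (lower panel) peaks around FIL. They lie between or at the nearest genes of the reference table with a positioned peak on each side. The horizontal axis gives distance in kb from the maximum of the highest PI peak, and the vertical axis the authors' peak score. Bars span the width of each peak. The highest peak (1142 for PI and 616.5 for AP3) is in no listed window, and the peaks downstream of GOS12 (59.9 and 112) lie 1285 and 1334 bp to its right.

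A small PI peak of score 51.05 lay 743 bp from the high peak, at 18634679 to 18634897, with no AP3 peak over it. FIL has no score, so this peak was not assigned to its windows either.

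YAB2 and YAB3, which act together with FIL in leaves, and INO, a gene of the outer integument of the ovule, were listed for neither protein. CRC (AT1G69180), the YABBY gene of carpels and nectaries and not among the 9, was listed for both, with scores of 502 and 153 2000 to 3000 bp upstream. With CRC, 2 of 6 YABBY genes were listed for PI and 1 for AP3, beside 8.69% and 7.26% of all protein-coding genes. CRC, like KAN4, came from the list chosen by hand. Neither protein was listed at ARF4, while its partner ETT (AT2G33860) had scores of 830 (PI) and 177 (AP3) 2000 to 3000 bp upstream and a PI score of 82.8 inside the gene.

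Around the other unlisted genes, peaks were looked up in stretches of chromosome. Each stretch ends at the first gene with a positioned peak, so a low number of peaks in it follows from that rule. The rule also shapes their scores, since a peak with a repeated score bounds no stretch, and most peaks left had one. Their low scores are therefore not a result about these genes. For KAN1, KAN3, YAB2, YAB3, INO and ARF4, the stretch between the nearest genes of the reference table with a positioned peak on each side was 58.6 to 272 kb long. Without the peaks of the bounding genes, the 6 stretches held 8 PI peaks with scores from 28.2 to 98.2 and 4 AP3 peaks with scores from 30.5 to 79.9. The highest pair (98.2 and 79.9, with maxima at the same base, 24336509) was on chromosome 5 in the stretch around ARF4 and ranked 841 for PI and 570 for AP3, above the median of either list. In the stretch around KAN1, an AP3 peak of 61.8 at chromosome 5, 5420068 to 5420426, overlapped a PI peak of 37.95 at 5420005 to 5420229, so AP3 had the higher score there too (1.63 times, 59th of the 1025 ratios). The PI table lists that PI peak for AT5G16567, a locus outside the reference table, so it bounds no stretch here. In the stretch around YAB3 the scores of a pair were nearly equal, at 49.4 for PI and 49.5 for AP3. These peaks can belong to other genes of the stretch.

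A list of 18 other polarity genes was set beside the members. In it 10 genes (55.6%) were listed for PI and 9 for AP3, against the 8.69% and 7.26% of all protein-coding genes given above. The list was chosen by hand with earlier results of these data known, so the difference was not tested. Under the alternatives described at the end, the PI count was 7 to 10 and the AP3 count 3 to 6. The share of all genes was not recomputed under them, so these counts cannot be set against 8.69% and 7.26%. The median of their highest scores was 162 for PI and 54.1 for AP3, and over all listed protein-coding genes it was 87.2 and 59.5. On the abaxial side, ETT, KAN4, CRC and AGO7 (AT1G69440), which encodes the ARGONAUTE protein of the trans-acting small RNA pathway that targets ETT and ARF4, were all listed for PI. All but AGO7 were also listed for AP3. AGO7 had a PI score of 74.5 0 to 1000 bp upstream, at chromosome 1, 26105767 to 26106104, a peak also listed for AT1G69450.

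Of the 5 co-repressor genes whose products work with YABBY proteins, none was listed for PI and 1 was listed for AP3, counts too small to set apart from the 8.69% and 7.26% of all genes. LUG (AT4G32551), LUH (AT2G32700), SEU (AT1G43850) and SLK1 (AT4G25520) were in neither table. SLK2 (AT5G62090), a SEUSS-like gene, was in the AP3 table alone, with a score of 39.0 inside the gene. Both homeobox genes of the organ margin had low scores. WOX1 (AT3G18010) had 63.2 inside the gene for PI and 36.8 2000 to 3000 bp upstream for AP3, so the proteins were listed in different windows. PRS (AT2G28610) had 50.5 inside the gene for PI and was not listed for AP3.

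On the adaxial side, which opposes KANADI function, 4 of 7 genes were listed for PI and the same 4 for AP3. Of all protein-coding genes, 8.69% and 7.26% were listed, and these 7 genes were also chosen by hand. The homeodomain-leucine zipper genes REV (AT5G60690) and PHB (AT2G34710) scored 170 and 141 for PI and 54.1 and 44.9 for AP3. For REV both scores were 1000 to 2000 bp upstream, at chromosome 5, 24395776 to 24396127 for PI. For PHB they were 0 to 1000 bp upstream, with a PI peak 987 bp wide at chromosome 2, 14644891 to 14645877, and both proteins had a lower score downstream (89.1 and 26.6). PHV (AT1G30490) had its highest scores, 727 for PI and 99.3 for AP3, in different windows. A PI peak of 349 overlapped the AP3 peak of 99.3, at chromosome 1, 10794898 to 10795880, with maxima 99 bp apart. The MYB gene AS1 (AT2G37630) had 568 and 352 in the same window. AS2 (AT1G65620), CNA (AT1G52150) and ATHB8 (AT4G32880) were in neither table. In each of the 8 genes of this list that were listed for both proteins, the highest PI score exceeded the highest AP3 score. This is the common order, since AP3 had the higher score in only 26.0% of all protein-coding genes listed for both.

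**Figure D4:**
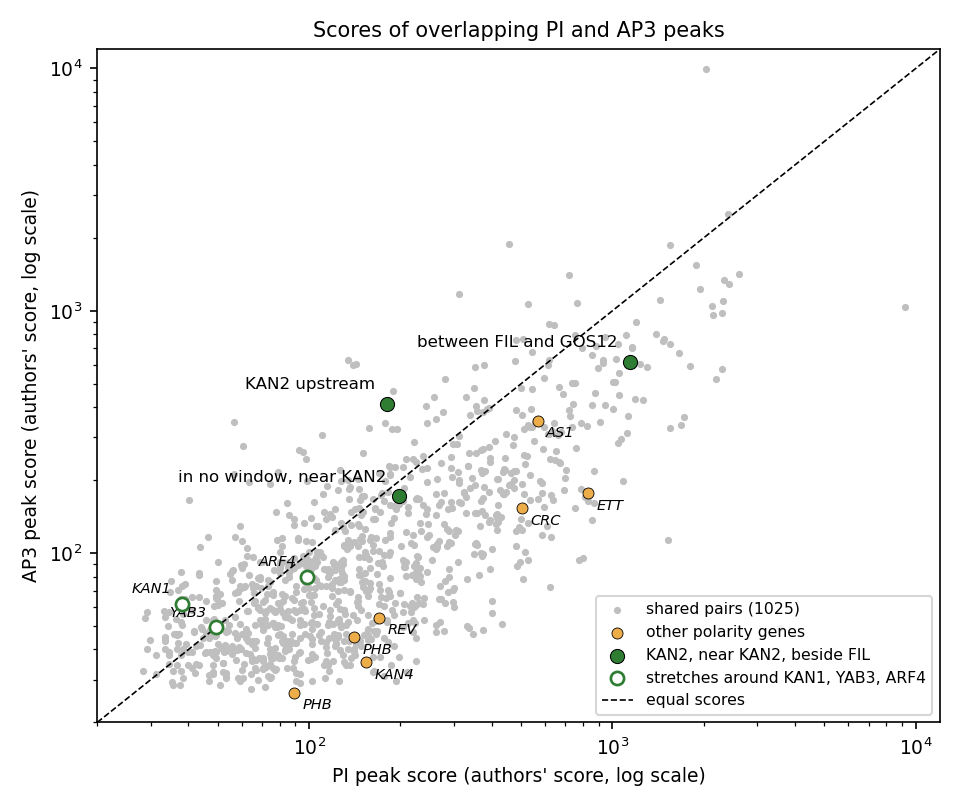
AP3 score against PI score, both on log axes, for the 1025 overlapping peak pairs (grey), with pairs at KAN2, near KAN2 and beside FIL in filled green, pairs in the stretches around KAN1, YAB3 and ARF4 as open green circles, pairs at other polarity genes whose PI peak was positioned in yellow, and the dashed line at equal scores. The KAN2 upstream pair (181 and 413) and the pair in the KAN1 stretch (37.95 and 61.8) stand above the line, the YAB3 pair lies on it, and the pair between FIL and GOS12 (1142 and 616.5) and those at ETT, CRC, KAN4, REV, PHB and AS1 stand below it.

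KAN2 held both the highest PI and the highest AP3 score of the 9 genes, and genes with a similar binding pattern were looked up. Scores in exactly its windows were found in 8 other genes. These windows were 0 to 1000 bp upstream and inside the gene for PI and 0 to 1000 bp upstream for AP3. Such counts are not given for other combinations of windows, so 8 is not shown to be a small number. Likeness was measured over the 2 libraries as the distance between the percentile ranks of the highest PI and AP3 scores among listed genes. The nearest was AT5G13100 (174 and 177, at a distance of 11.02 percentile points). Next were LOF1 (AT1G26780), a MYB gene of organ boundaries (446 and 179, 18.5 points), and LSH1 (AT5G28490), an ALOG-domain gene (2198 and 522, 24.1 points). At AT5G13100 the scores were nearly equal, and at LOF1 and LSH1 the PI score was the higher.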

How the data were processed

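The authors deposited a peak list and a gene table for the PI-GFP and the AP3-GFP library. Values of the control library were not analysed here. Per the file headers the value in both is a peak score (Poisson), and each peak has its bounds, its width and its maximum. Per the submitters' processing notes, BWA 0.6.1, SAMtools and the TAIR10 build were used. Which peak caller, threshold and gene models were used is not given in the sources used here.

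Python 3.11.15 with pandas 2.3.3 was used. Genes were matched to peaks by chromosome and identical score where 1 peak had that score. The score of YAB5 occurs at 2 peaks of its chromosome, and gene order settled which was meant. Names, biotypes and gene order came from a RefSeq table (assembly TAIR10.1), in which all 27 list genes matched, 22 by symbol and 5 by synonym. Its coordinates were not used. Peaks were shared when they overlapped by at least 1 bp. The overlap and matching steps were tested on simulated data. All simulated scores in the matching test differed, so it did not cover repeated scores. In the real lists, 2200 of 2913 PI and 1531 of 2426 AP3 scores of gene windows belonged to 1 peak only. The members and lists were chosen with earlier results of these data known. All 9 members, all 18 other polarity genes, genes sharing a member's peak and the 3 genes most like the top member are named by rule. LOF1 is MYB117 in the reference table. With 1 library per protein, comparisons are descriptions. Alternatives covered the score minimum, the windows, peaks tied to several genes and the overlap rule.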

Additional observations from a re-analysis of the deposited data

How the results depend on the processing

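Of 26 alternative values for 7 counts, 22 stayed within 1.5 times the reported count and none was higher. The PI count of 2 among the 9 genes fell to 1 when peaks below the median score were left out, since YAB5 scored below it, and to 1 when a gene needed a peak tied to it alone, since the YAB5 score occurs at 2 peaks. The AP3 count of 1 (KAN2), the count for both, and the 1 shared KAN2 peak held under every alternative run. These all rest on the same AP3 peak upstream of KAN2. The AP3 count of 9 among the 18 other polarity genes fell to 4 without peaks below the median score, and to 3 when only the gene and its first 1000 bp upstream counted. No paired analysis was possible because each group has 1 library. Depth is unknown, so an unlisted gene is not shown to be unbound.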
